A study of Mus musculus with 46 samples.

Results

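The heat shock and ER (endoplasmic reticulum) chaperone genes were followed in mouse liver during the first 4 h after removal of most of the liver. The members were picked by symbol: every Affymetrix probe set named for 1 gene whose symbol starts with Hsp and then a, b, d, e, g, h or 9, with Dnaj, with Cct and a digit, or with Pdia (the rule leaves out 1 Pdia symbol), and the single genes Hsf2, Ddit3, Xbp1, Atf4, Atf6, Herpud1, Creld2 and Tcp1. This gave 92 probe sets of 67 genes, out of 12422 probe sets and 8251 singly named genes that were tested. The rule also lists Hsf1 and Sdf2l1, for which no singly named probe set was used here. Hspg2, which codes for the matrix proteoglycan perlecan, is a member by its symbol and is not a chaperone.

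The study compared the early response to 70% partial hepatectomy (PH) in livers of old and young male CB6F1 mice, on 46 MG-U74v2 arrays. Old mice were 25 to 27 months of age and came from the National Institute on Aging, and young mice were 5 to 6 months and came from Jackson Laboratories, so age and supplier cannot be told apart. At each age there were PH livers at 0.5, 1, 2 and 4 h after surgery (3 arrays each), sham-operated livers at the same times (2 arrays each) and livers taken at 0 h without surgery (3 arrays). PH and sham mice alike received avertin by injection and then isoflurane by inhalation. The labels do not say that arrays of a group came from different mice, and the p-values speak of array-to-array spread, part of which may be technical. Arrays are named below by age, condition and their number within the group, and how many there are limits the precision.

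Chaperones bind unfolded chains and help them reach their native shape. HSP70 proteins do so together with J proteins, which deliver substrates and stimulate ATP hydrolysis, while HSP90, the small heat shock proteins and the barrel-shaped chaperonin each take other substrates. In the cytosol the genes are driven by heat shock factors, of which HSF1 responds to stress, through repeats of GAA and TTC called heat shock elements. In the ER, where the liver folds the plasma proteins it secretes, unfolded chains activate IRE1, PERK and ATF6, which act through the factors XBP1, ATF4 and ATF6, and XBP1 and ATF6 bind ER stress response elements.

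Promoter stretches are shown for 8 members, as examples chosen among those whose start regions held one of these elements. The other 9 members with an element are not shown. They are RefSeq sequences of the GRCm38.p6 build, read 5' to 3' on the gene's own strand, with the letters of the element in capitals. The stretch of Hspa1b is chr17:34959279-34959398 on the minus strand, with an element of 2 units (GAANNTTC) that starts 104 bases before the transcription start. Hsph1 (chr5:149636287-149636406, minus strand) and Hspd1 (chr1:55088008-55088127, minus strand) hold elements of 3 units (GAANNTTCNNGAA), which contain the 2-unit form. The Hsph1 element lies just past the start, and Hspd1 has 2 overlapping ones. Hspa5 (chr2:34771974-34772093, plus strand), Hsp90b1 (chr10:86705533-86705656, minus strand) and Creld2 (chr15:88819469-88819588, plus strand) hold the ER stress response element (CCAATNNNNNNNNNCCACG), which Hsp90b1 has at 2 places. Herpud1 (chr8:94386322-94386441, plus strand) and Dnajb11 (chr16:22857775-22857894, plus strand) hold its second form (ATTGGNCCACG).
Hspa1b: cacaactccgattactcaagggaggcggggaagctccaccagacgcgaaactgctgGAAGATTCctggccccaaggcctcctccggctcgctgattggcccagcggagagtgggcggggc
Hsph1: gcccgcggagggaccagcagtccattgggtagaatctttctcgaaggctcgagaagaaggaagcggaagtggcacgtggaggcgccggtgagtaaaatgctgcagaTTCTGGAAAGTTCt
Hspd1: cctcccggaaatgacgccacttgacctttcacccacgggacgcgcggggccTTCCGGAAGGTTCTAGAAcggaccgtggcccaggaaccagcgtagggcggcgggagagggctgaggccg
Hspa5: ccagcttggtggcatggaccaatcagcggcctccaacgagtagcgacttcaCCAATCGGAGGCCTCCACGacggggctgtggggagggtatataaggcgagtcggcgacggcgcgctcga
Hsp90b1: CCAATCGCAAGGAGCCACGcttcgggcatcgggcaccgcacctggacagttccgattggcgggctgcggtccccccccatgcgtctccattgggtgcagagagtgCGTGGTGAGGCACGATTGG
Creld2: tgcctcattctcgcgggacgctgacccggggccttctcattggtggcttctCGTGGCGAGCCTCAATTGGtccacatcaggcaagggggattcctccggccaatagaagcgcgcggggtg
Herpud1: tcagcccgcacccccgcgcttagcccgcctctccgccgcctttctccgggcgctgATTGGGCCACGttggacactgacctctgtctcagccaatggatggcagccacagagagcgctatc
Dnajb11: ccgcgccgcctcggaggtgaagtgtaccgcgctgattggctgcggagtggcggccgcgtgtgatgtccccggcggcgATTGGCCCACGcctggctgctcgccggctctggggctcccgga

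Both strands of the windows from 250 bases before to 50 bases after each start were searched. Of the 67 member genes, 58 had such a window. The heat shock element of 2 units was found in 10 of these 58 genes, or 12 of their 72 windows, and in 7.86% of all 32851 windows. The 3-unit form was found in 4 genes (Hspd1, Hspe1, Dnajb6 and Hsph1), or 6 windows, and in 0.603% of all windows. The windows of Hspd1 and Hspe1 overlap on opposite strands and hold the same 3-unit sites. The ER stress response element was found in 5 genes (Hspa5, Hsp90b1, Pdia6, Dnajc3 and Creld2), or 5 windows, and in 0.119% of all windows. The second form was found in 2 genes (Herpud1 and Dnajb11), or 2 windows, and in 0.0365% of all windows. A match describes these letters in this window and is not evidence that a factor bound there.

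All levels are the authors' deposited log2 expression values, and a difference of 1 is a 2-fold change. The median member had a level of 7.26, against 6.29 for all probe sets. Hepatocyte genes were among the brightest on the arrays: albumin (Alb) ranged between 13.34 and 14.04 and apolipoprotein Apoa1 between 13.62 and 14.12. The 16 sham arrays form a set of their own. Principal component 1 of all probe sets held 26.8% of the variance, and the lowest sham score on it was 7.75, above the highest score of the other 30 arrays, 6.27. Differences between PH and sham therefore rest on sham arrays that differ from the rest across the array, while the difference between PH and 0 h does not use them except for the shared estimate of spread. Spike-in controls also moved: their mean over 9 probe sets lay between 7.76 and 9.25 on the PH arrays at 1 and 2 h, between 7.68 and 10.9 on those at 0.5 and 4 h, and between 9.05 and 9.55 on the sham arrays, against 8.79 to 10.6 at 0 h. The part of either in the results was not tested beyond the alternative fits given below.

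Chaperone genes were called after PH mostly at 2 and 4 h, and in both directions. A gene was called at an adjusted p under 0.05 in limma, with Benjamini-Hochberg adjustment over all 12422 probe sets. At 0.5 h after PH, 0 members were called against 0 h, where 0.0886% of all probe sets were, and 18 members had an unadjusted p under 0.05. The share of all probe sets under that unadjusted threshold was not computed, for this count or for the unadjusted counts below. At 1 h, 3 members rose and 4 fell (7.61% of members, against 3.72% of all). At 2 h, 14 rose and 5 fell (20.7% of members, against 12.8%). At 4 h, 12 rose and 11 fell, a share close to the 23.5% of all probe sets. In all, 36 members of 33 genes were called at 1 or more of these times. The matching share of all probe sets was not computed, so this count is not read as particular to the members. The median member differed from 0 h by 0.05 at 2 h, against -0.01 for all probe sets, and by 0.02 at 4 h, against 0.02.

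These counts depended on single arrays at the earlier times. The 7 calls at 1 h became 3 without young 0 h array 2, 1 without old 0 h array 3, 3 without young PH 1 h array 1 or 2, and 0 without old PH 1 h array 3. The 19 calls at 2 h became 11 without young 0 h array 1 or 2, 12 without old 0 h array 3, 10 without young PH 2 h array 2 and 9 without old PH 2 h array 3. At 4 h the fits without 1 array gave 17 to 22 calls. When the compared groups were fitted alone, without sham arrays in the estimate of spread, the counts were 0, 2, 13 and 20. With the spike-in level as a covariate they were 0, 0, 3 and 21.

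More members were called between PH and sham, as more probe sets were in general. At 0.5 h, 16 were higher after PH and 9 lower (27.2% of members, against 29.2% of all probe sets). At 1 h, 13 were higher and 17 lower (32.6%, against 43.5%). At 2 h, 20 were higher and 12 lower (34.8%, against 34.8%). At 4 h, 7 were higher and 11 lower (19.6%, against 23.5%). The share of members was thus at or below the share of all probe sets at each time. Without young sham 0.5 h array 2 the count at 0.5 h was 16. Without young or old sham 2 h array 2 that at 2 h was 19 or 17, and without young or old sham 4 h array 2 that at 4 h was 10 or 11.

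Sham surgery alone was also set against 0 h. Averaged over the 4 times, 19 members were higher in sham livers and 15 lower (37.0% of members, against 45.1% of all probe sets). By time, 18 members were called at 0.5 h (22.3% of all probe sets), 24 at 1 h (34.5%), 22 at 2 h (30.2%) and 30 at 4 h (31.3%). The change of the difference between PH and sham from 0.5 h to 4 h, in which a constant offset of the sham arrays cancels, passed for 0 members, against 1.58% of all probe sets, and 17 members had an unadjusted p under 0.05. Leaving out old PH 0.5 h array 1 or 3, young PH 4 h array 2 or old PH 4 h array 1 gave 1 call there.

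**Figure D1:**
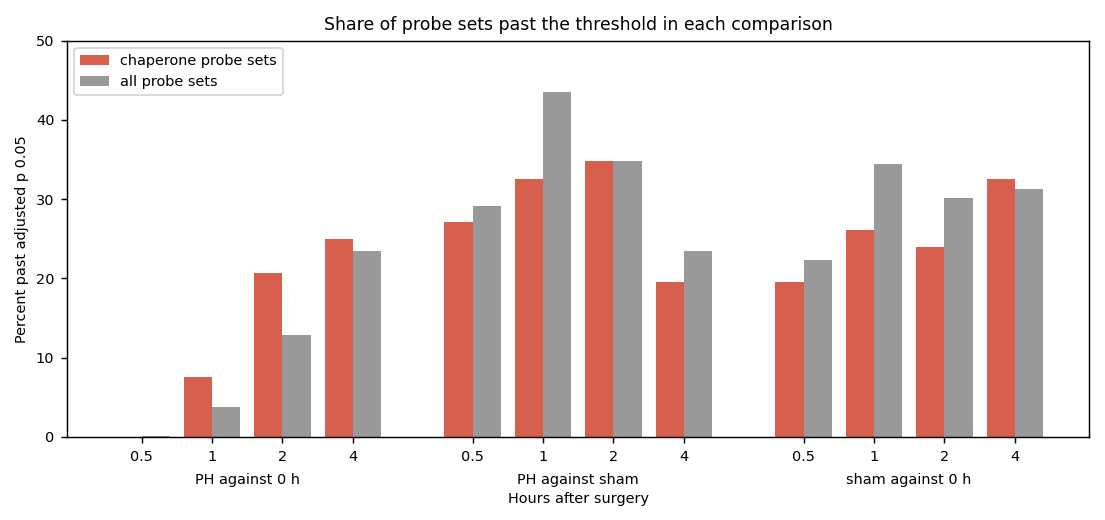
Percent of the 92 members and of all 12422 probe sets called at an adjusted p under 0.05 in limma, for PH against 0 h, PH against sham and sham against 0 h at each time after surgery (h). Members lie above all probe sets for PH against 0 h at 1 and 2 h and close to them at 4 h, and at or below them for PH against sham.

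**Figure D2:**
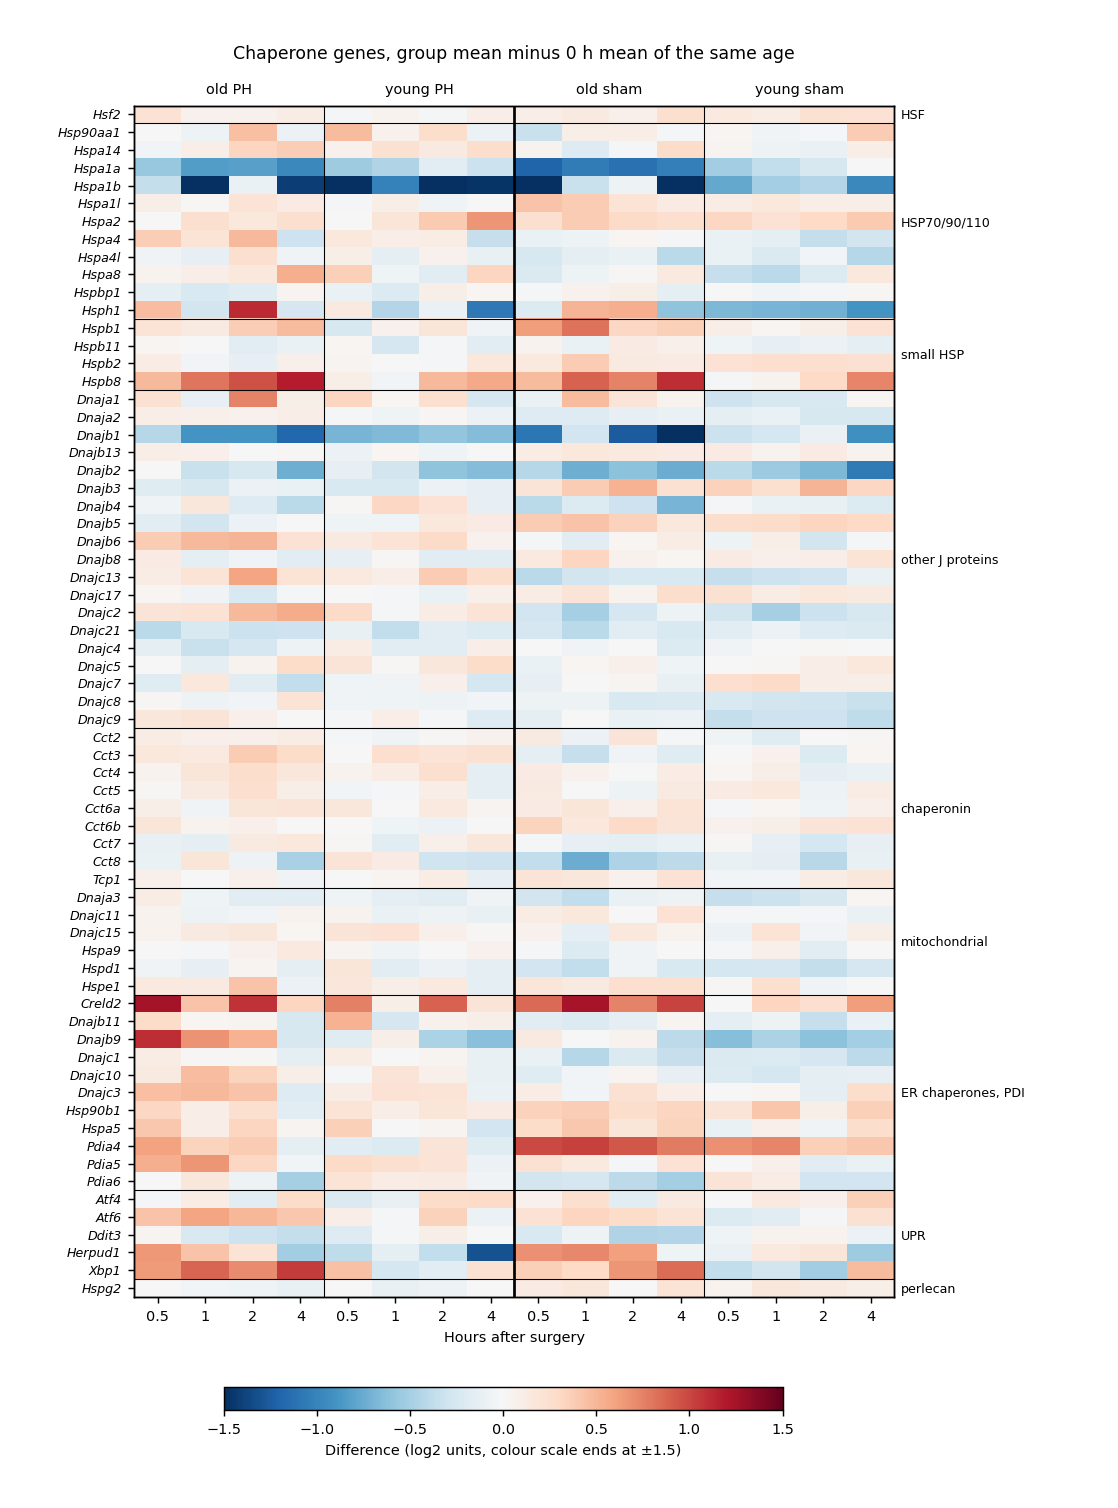
Mean log2 level of each of the 67 genes in a group minus the mean of its own age at 0 h, from the brightest probe set of each gene. Columns are old PH, young PH, old sham and young sham livers by time, rows are ordered by role, and the colours end at -1.5 and 1.5. Hspb8 is higher and Dnajb2 lower in both PH and sham livers at 4 h.

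Hsf2, a heat shock factor that acts in development and alongside HSF1, was not called against 0 h at any time after PH, and was higher by 0.16 in sham livers (adjusted p = 0.0233), a call lost without young 0 h array 1 (0.0871) or 2 (0.0502) or old 0 h array 1 (0.118).

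Among the small heat shock proteins, Hspb8 had the clearest rise of all members. Hspb8 works with the cochaperone BAG3 in delivering misfolded proteins to autophagy. Its level was 11.02, 10.76 and 10.83 in old and 10.78, 10.67 and 10.71 in young livers 4 h after PH, against 9.84, 9.39 and 9.83 in old and 10.12, 10.13 and 10.19 in young livers at 0 h. Every PH array at 4 h lay above every 0 h array. The difference was 0.73 ± 0.12 (SE) at 2 h (adjusted p = 3.25e-05) and 0.88 ± 0.12 at 4 h, a fold of 1.84 (adjusted p = 7e-07), after 0.29 at 0.5 h and 0.38 at 1 h (adjusted p = 0.657 and 0.0576). The second probe set of Hspb8 gave 0.46 and 0.72 at 2 and 4 h. Both calls held in every fit without 1 array and in every alternative.

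The rise of Hspb8 was not particular to PH. Sham livers at 4 h had 10.65 and 10.95 in old and 10.93 and 10.85 in young mice, within the range of the PH arrays at that time apart from 1 array, and the difference from 0 h was 0.92 (adjusted p = 3e-06). PH minus sham at 4 h was -0.05 (adjusted p = 0.818). At 1 h the second probe set was lower after PH than after sham, by -0.50 (adjusted p = 0.000124).

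**Figure D3:**
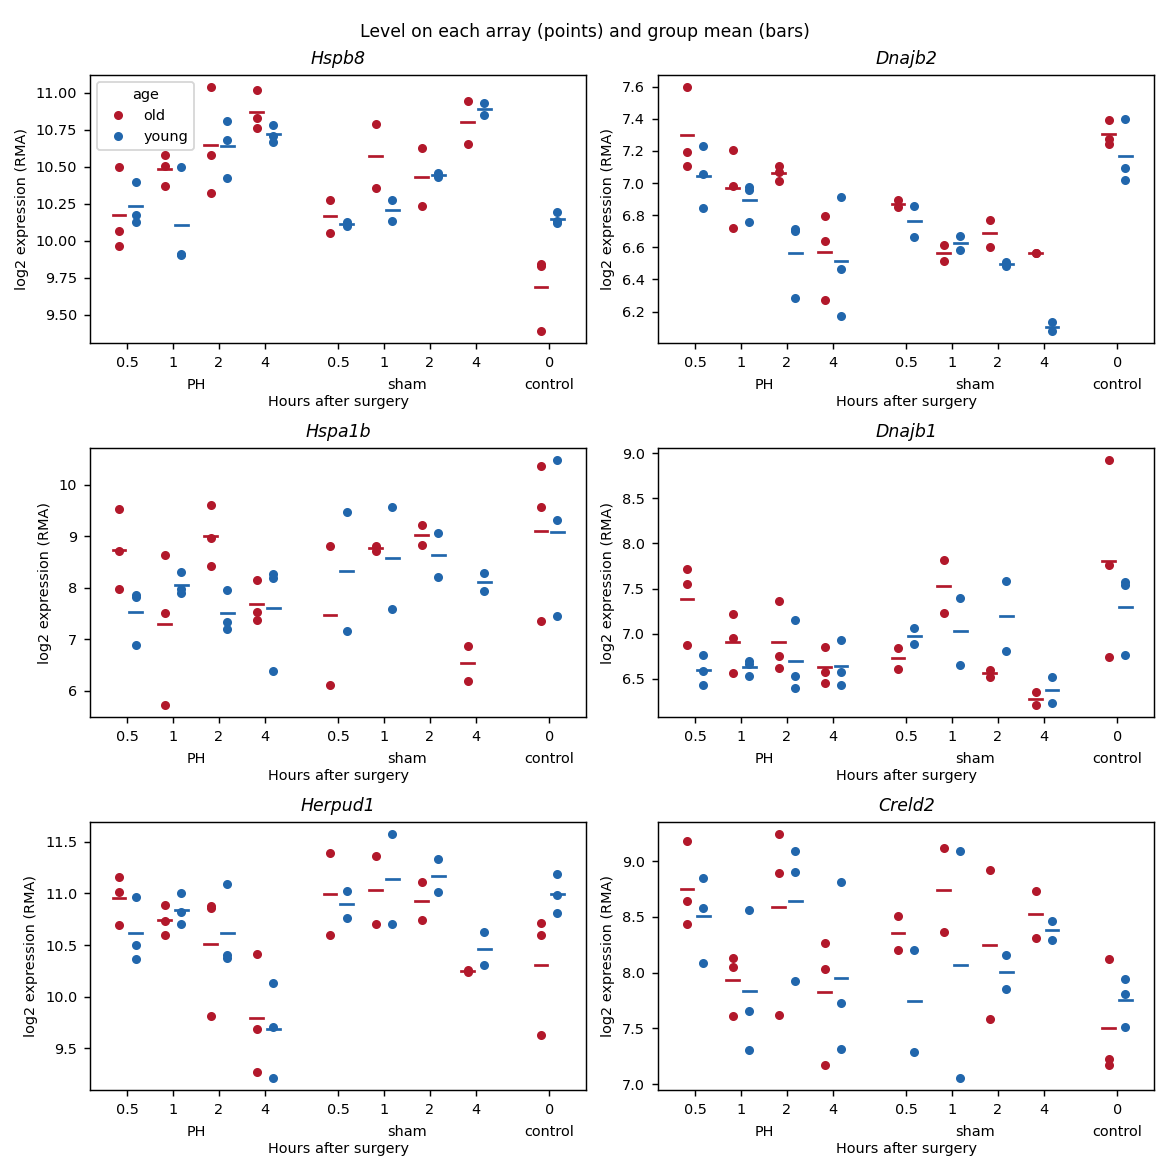
Log2 level of Hspb8, Dnajb2, Hspa1b, Dnajb1, Herpud1 and Creld2 on each of the 46 arrays, by condition and age. For Hspb8 and Dnajb2 the 6 PH arrays at 4 h do not overlap the 6 arrays at 0 h, while Hspa1b, Dnajb1, Herpud1 and Creld2 arrays at 0 h are widely spread.

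Hspb1, the small heat shock protein also known as HSP25, rose by 0.27 at 2 h (adjusted p = 0.0174) and 0.21 at 4 h (adjusted p = 0.0467). It was dim: PH arrays at 2 h ranged over 3.51 to 3.77 with a median of 3.60, against 3.18 to 3.52 with a median of 3.32 at 0 h, so the ranges met only at their edges. The 2 h call was lost without young PH 2 h array 3 (adjusted p = 0.0511). The 4 h call was lost in 9 of 12 fits without 1 array, and held without old PH 4 h array 1 or 2 or young PH 4 h array 1. Sham livers at 4 h were higher than at 0 h by 0.29 (adjusted p = 0.0116), and PH minus sham was -0.08 (adjusted p = 0.557). Hspb1 was lower after PH than after sham by -0.38 at 0.5 h and -0.32 at 1 h (adjusted p = 0.00182 and 0.00394), and the 1 h call was lost without old sham 1 h array 2 (adjusted p = 0.0831). Hspb2, best known from muscle, was lower after PH than after sham at each time on the dimmer of its 2 probe sets, by -0.55, -0.41, -0.35 and -0.31, and in sham livers it was higher than at 0 h by 0.44 (adjusted p = 3.84e-06). Against 0 h that probe set of Hspb2 differed after PH by -0.02, -0.02, 0.11 and 0.04 and was not called.

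The stress-inducible HSP70 genes Hspa1a and Hspa1b fell at 4 h, with very uneven arrays. Their coding sequences are nearly identical, so the signal may be shared between them. Hspa1b had 7.38, 7.53 and 8.16 in old and 6.39, 8.18 and 8.26 in young livers 4 h after PH, against 10.37, 7.36 and 9.56 in old and 10.47, 9.31 and 7.46 in young livers at 0 h. At 0 h 1 array of each age was as low as the PH arrays, so the groups overlap. The difference was -1.44 ± 0.53 (adjusted p = 0.0476). The call was lost in 8 of 12 fits without 1 array, with differences between -1.87 and -1.09, and held without young 0 h array 3, old 0 h array 2 or young PH 4 h array 2 or 3. It was also lost when the compared groups were fitted alone (adjusted p = 0.0865).

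Hspa1b was likewise low in sham livers at 4 h, with 6.87 and 6.20 in old and 8.29 and 7.93 in young mice, -1.77 ± 0.60 from 0 h (adjusted p = 0.0232). Hspa1a had levels of 6.23 to 6.73 with a median of 6.37 at 4 h after PH, against 6.19 to 7.86 with a median of 7.18 at 0 h, and 1 array at 0 h lay below all PH arrays. Its difference at 4 h was -0.64 ± 0.21 (adjusted p = 0.0255), and -0.69 ± 0.18 in sham livers over all times (adjusted p = 0.00198). The PH call was lost without young 0 h array 1 (0.13), old 0 h array 1 (0.0982) or 3 (0.0715), young PH 4 h array 1 (0.0719) or old PH 4 h array 3 (0.0541), where the values are adjusted p.

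The other cytosolic members moved less. Hspa8, the constitutive HSP70, differed from 0 h by 0.43 at 4 h without passing (adjusted p = 0.0622). It was higher after PH than after sham at 0.5 h by 0.49 (adjusted p = 0.0496), a call lost in 7 of 10 fits without 1 array and kept without young PH 0.5 h array 1, old PH 0.5 h array 3 or young sham 0.5 h array 1. Hsp90aa1, the inducible HSP90, and Hsph1, an HSP110 that exchanges nucleotide on HSP70, were not called against 0 h at any time, with 0.36 and 0.51 at 2 h. Hspa2, an HSP70 best known from testis, rose by 0.45 ± 0.10 at 4 h (adjusted p = 0.000983), and was dim, with 3.36 to 4.18 and a median of 3.67 after PH, against 3.13 to 3.52 and a median of 3.25 at 0 h, so the ranges overlapped. Its call held in every fit without 1 array.

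Hspa14, an HSP70 that sits on ribosomes, rose by 0.32 at 4 h (adjusted p = 0.0212), with every PH array (5.53 to 5.84) above every 0 h array (5.21 to 5.46). It was lost without old 0 h array 3 (adjusted p = 0.0609) or old PH 4 h array 2 (0.0525). Hspa4, another HSP110 exchange factor, has 5 probe sets. At 2 h 2 of them rose, the brightest by 0.30 (adjusted p = 0.0418) and another by 0.34 (adjusted p = 0.0253). The call of the brightest was lost in 9 of 12 fits without 1 array, kept without old 0 h array 2 or 3 or old PH 2 h array 2, and lost with the spike-in covariate (0.16, adjusted p = 0.585). At 4 h the Hspa4 probe sets disagreed: the brightest fell by 0.33 (adjusted p = 0.0137) while another rose by 0.34 (adjusted p = 0.0124), so no direction is given for the gene at that time. The fall was lost without old 0 h array 2 (0.0539) or old PH 4 h array 3 (0.0629). Hspbp1, a nucleotide exchange factor for HSP70, fell by 0.21 at 1 h (adjusted p = 0.0255), and was lost without young 0 h array 2 or 3, old 0 h array 3, young PH 1 h array 2 or old PH 1 h array 3 (adjusted p = 0.0506 to 0.131).

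J proteins were called in both directions. Of 24 probe sets of J proteins outside the ER and mitochondria, 1 rose and 3 fell at 1 h, 5 rose and 5 fell at 2 h, and 3 rose and 4 fell at 4 h, beside 3.72%, 12.8% and 23.5% of all probe sets called. The 3 that rose at 4 h were Dnajc5 and both probe sets of Dnajc2. Dnajb2, a J protein that binds ubiquitin chains and hands clients to the proteasome, fell with time. Its level was 6.64, 6.80 and 6.27 in old and 6.17, 6.91 and 6.46 in young livers 4 h after PH, against 7.39, 7.24 and 7.27 in old and 7.10, 7.40 and 7.02 in young livers at 0 h. No PH array at 4 h reached the lowest 0 h array. The difference was -0.30 at 1 h (adjusted p = 0.0999), -0.42 ± 0.11 at 2 h (adjusted p = 0.00699) and -0.69 ± 0.11 at 4 h (adjusted p = 9.49e-06), and both calls held in every fit without 1 array, while the 2 h call was lost with the spike-in covariate (adjusted p = 0.21).

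Dnajb2 also fell in sham livers, by 0.65 ± 0.09 over all times (adjusted p = 7.77e-07). Sham arrays at 0.5 h, 6.66 to 6.89, already lay below every 0 h array, while PH arrays at 0.5 h, 6.85 to 7.60, overlapped them. After PH it was thus higher than after sham by 0.36 at 0.5 h (adjusted p = 0.0239) and 0.34 at 1 h (adjusted p = 0.0228), with 0.21 at 4 h (adjusted p = 0.21). The 0.5 h call was lost without young PH 0.5 h array 3 (0.0684), old PH 0.5 h array 1 (0.0754), young sham 0.5 h array 2 (0.101) or old sham 0.5 h array 1 (0.0645) or 2 (0.0588), and the 1 h call without old PH 1 h array 2 (0.0653), young sham 1 h array 2 (0.0719) or old sham 1 h array 2 (0.082).

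Dnajb1, the main stress-inducible HSP40 and partner of HSP70, fell too. It had 6.85, 6.46 and 6.58 in old and 6.58, 6.93 and 6.43 in young livers 4 h after PH, against 8.92, 6.74 and 7.76 in old and 7.54, 7.57 and 6.76 in young livers at 0 h. The groups overlapped through 1 array of each age at 0 h, the same 2 arrays that were lowest there for Hspa1b. The difference was -0.91 ± 0.23 at 4 h (adjusted p = 0.00353) and held in every fit without 1 array. The calls at 1 h (-0.78, adjusted p = 0.0495) and 2 h (-0.75, adjusted p = 0.0285) were lost in 9 and 7 of 12 fits. The 1 h call held without young 0 h array 3, old 0 h array 2 or old PH 1 h array 2, and the 2 h call without young 0 h array 3, old 0 h array 2 or 3, young PH 2 h array 1 or old PH 2 h array 1. Sham livers at 4 h differed from 0 h by -1.22 (adjusted p = 0.000549).

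Other J proteins rose. Dnajb6, a suppressor of protein aggregation, was 8.92 to 9.23 with a median of 9.13 in PH livers at 2 h, against 8.53 to 8.84 with a median of 8.72 at 0 h, without overlap. It rose by 0.40 ± 0.09 (adjusted p = 0.0019), a call lost with the spike-in covariate (0.37, adjusted p = 0.0579), was higher than in sham livers by 0.52 at 2 h (adjusted p = 0.000176), and its call at 1 h (0.35, adjusted p = 0.0185) was lost without young 0 h array 1 (0.0554), old 0 h array 3 (0.0705), young PH 1 h array 1 (0.0659) or old PH 1 h array 3 (0.108). Dnajc13, an endosomal J protein that acts with HSC70 on clathrin coats, rose by 0.48 ± 0.12 at 2 h (adjusted p = 0.00491), a call lost with the spike-in covariate (0.38, adjusted p = 0.175). PH arrays at 2 h ranged over 5.79 to 6.67 with a median of 6.33, against 5.54 to 5.94 with a median of 5.84 at 0 h, and overlapped at the edge. Dnajc13 was higher after PH than after sham at all 4 times, by 0.50, 0.44, 0.74 and 0.39, and sham livers were lower than 0 h by -0.27 (adjusted p = 0.0226, lost without young 0 h array 1 or 2 or old 0 h array 3). The 4 h difference from sham was lost in 6 of 10 fits without 1 array, those without any 1 of the 4 sham 4 h arrays, young PH 4 h array 3 or old PH 4 h array 3.

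Dnajc2, the ribosome-bound partner of Hspa14, rose on both its probe sets at 4 h. Its level was 7.42 to 7.72 with a median of 7.53 in PH livers at 4 h, against 7.01 to 7.38 with a median of 7.17 at 0 h, and no arrays overlapped. The difference was 0.30 at 2 h (adjusted p = 0.0133, lost without old PH 2 h array 3, where it was 0.0569) and 0.38 at 4 h (adjusted p = 0.000804), with 0.36 at 4 h on its other probe set. Against sham it was higher by 0.53, 0.60, 0.59 and 0.54 at the 4 times, and sham livers were lower than 0 h by -0.31 (adjusted p = 0.000505). These values come from the brighter probe set, whose name carries a cross-hybridisation suffix. On the other probe set of Dnajc2, PH minus sham was 0.28 at 0.5 h, a call, and 0.24 at 4 h (adjusted p = 0.0833). There sham livers at 4 h differed from 0 h by 0.12 (adjusted p = 0.376). Dnajc5, the cysteine string protein of secretory vesicles, rose by 0.28 at 4 h (adjusted p = 0.00762), with PH arrays of 7.85 to 8.05 above the 0 h arrays of 7.47 to 7.80.

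Of the remaining J proteins, Dnaja1 rose by 0.49 at 2 h (adjusted p = 0.0488), lost in 10 of 12 fits and kept without old 0 h array 1 or old PH 2 h array 2. Dnajc21, which takes part in making the large ribosomal subunit, fell by 0.30, 0.25 and 0.26 at 1, 2 and 4 h, and Dnajc4 fell by 0.24 and 0.20 at 1 and 2 h. The Dnajc21 calls at 1 and 2 h were lost in 9 of 12 fits each, and kept without young 0 h array 1, old 0 h array 1 or old PH 1 h array 2, and without old 0 h array 1 or old PH 2 h array 1 or 3. That at 4 h was lost without old 0 h array 2 (0.0552), young PH 4 h array 1 (0.0712) or old PH 4 h array 3 (0.0603). The Dnajc4 call at 1 h was lost without old 0 h array 3 (0.0672) or old PH 1 h array 3 (0.0752), and that at 2 h without young 0 h array 2 (0.0569), old 0 h array 3 (0.0685) or young PH 2 h array 1 (0.054). Dnajc7, which links HSP70 and HSP90, fell by 0.32 at 4 h (adjusted p = 0.0452), lost in 10 of 12 fits and kept without old 0 h array 3 or young PH 4 h array 2. Dnajc17 fell by 0.17 at 2 h, lost in 9 of 12 fits and kept without young 0 h array 3, old 0 h array 2 or young PH 2 h array 3.

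The chaperonin, a ring complex that folds actin and tubulin, had 1 of 14 probe sets called against 0 h at 2 h and 1 at 4 h. Of all probe sets, 12.8% and 23.5% were called at these times. Cct3 rose by 0.25 at 2 h on 1 of its 3 probe sets (adjusted p = 0.0334), with 0.30 on its brightest (adjusted p = 0.128). Cct8 fell by 0.40 at 4 h (adjusted p = 0.0135), to 6.67 to 6.94 with a median of 6.84, against 6.93 to 7.42 with a median of 7.27 at 0 h, and a single 0 h array lay among the PH arrays. It was lost without young 0 h array 2 (adjusted p = 0.0543). Cct2 was not called in any comparison of PH. At 2 h, 5 of the 14 chaperonin probe sets were higher after PH than after sham and 2 were lower, beside 13.9% of all probe sets higher and 20.9% lower. Among the higher ones were Cct3 by 0.43 and Cct4 by 0.32 (adjusted p = 0.0204 and 0.0183), and at 4 h Tcp1 was lower by -0.28 (adjusted p = 0.0131). Against 0 h, Cct4 differed after PH by 0.25 at 2 h (adjusted p = 0.0741) and Tcp1 by -0.08 at 4 h (adjusted p = 0.451). The Cct3 call was lost without young sham 2 h array 1 (0.0752) or old sham 2 h array 2 (0.188), the Cct4 call without array 2 of young PH 2 h (0.0523), young sham 2 h (0.116) or old sham 2 h (0.113) or without old PH 2 h array 3 (0.0578), and the Tcp1 call without young sham 4 h array 2 (0.056) or old sham 4 h array 1 (0.0744).

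Some of the widest gaps between sham and the other livers came from probe sets whose names carry a cross-hybridisation suffix, as 22 of the 92 members do. The suffixed probe set of Cct6a was 0.97 higher in sham livers than at 0 h (adjusted p = 1.02e-10), with all 16 sham arrays at 6.67 or above and all PH and 0 h arrays at 6.34 or below. That of Dnajb13 was 1.49 higher (adjusted p = 5.85e-10). The mitochondrial chaperonin Hspd1 (HSP60) showed opposite signs: its suffixed probe set was 0.41 higher in sham livers and its brighter one 0.26 lower (-0.26, adjusted p = 0.00549).

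The mitochondrial chaperones had 7 probe sets. The suffixed one of Hspd1 was lower than at 0 h at 4 h after PH, by -0.21 (adjusted p = 0.0236). Of all probe sets, 12.8% were called against 0 h at 2 h and 23.5% at 4 h. Hspe1 (HSP10), the lid of HSP60, rose by 0.29 at 2 h (adjusted p = 0.048), lost in 10 of 12 fits and kept without young PH 2 h array 1 or old PH 2 h array 2. Hspa9, the mitochondrial HSP70, was not called against 0 h at any time.

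ER chaperones showed no common rise. Hspa5 (BiP), the HSP70 of the ER, had a median of 11.30 in PH livers at 0.5 h, with a range of 10.70 to 11.49, against a median of 10.89 and a range of 10.49 to 11.04 at 0 h, and the ranges overlapped. The difference was 0.38 (adjusted p = 0.704), and it was not called at a later time. Hsp90b1 (GRP94), the HSP90 of the ER, was not called against 0 h after PH, was 0.30 higher in sham livers than at 0 h (adjusted p = 0.0115), and was lower after PH than after sham at 4 h by -0.36 (adjusted p = 0.0384, lost in 9 of 10 fits without 1 array and kept without young PH 4 h array 1).

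Creld2, an ER protein induced by unfolded chains, had the largest rise at 2 h. Its level was 8.90, 7.62 and 9.25 in old and 7.92, 9.09 and 8.90 in young livers 2 h after PH, against 7.22, 7.17 and 8.12 in old and 7.94, 7.51 and 7.81 in young livers at 0 h. Of the 6 PH arrays, 4 lay above all 0 h arrays and the other 2 among them. The difference was 0.98 ± 0.32, a fold of 1.98 (adjusted p = 0.0391). The call was lost in 9 of 12 fits without 1 array, with differences between 0.82 and 1.23, and held without old 0 h array 3, young PH 2 h array 1 or old PH 2 h array 2. At 0.5 h the difference was 1.00 without passing (adjusted p = 0.505), and in sham livers over all times it was 0.63 (adjusted p = 0.0533).

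Pdia4 (ERp72), a disulfide isomerase, was higher in sham livers than in PH and 0 h livers. Sham arrays at 0.5 h were 10.22 to 10.29, above every PH array at that time (9.28 to 10.04) and every 0 h array (9.06 to 9.90). After PH Pdia4 was lower than after sham by -0.62, -0.81, -0.36 and -0.75 at the 4 times (adjusted p = 0.000169, 2.31e-06, 0.0141 and 1.68e-05), of which the 2 h call was lost without old sham 2 h array 1 (adjusted p = 0.104). It was not called between PH and 0 h at any time, and was 0.74 ± 0.08 higher in sham livers than at 0 h (adjusted p = 4.87e-08).

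Other ER folding enzymes were called at single times. Pdia5 rose by 0.45 at 1 h (adjusted p = 0.022), lost without young 0 h array 3 (0.0545), young PH 1 h array 1 (0.0861) or old PH 1 h array 3 (0.0851). Dnajc10, an ER J protein that reduces disulfides, rose by 0.33 at 1 h (adjusted p = 0.0272), lost in 5 of 12 fits: without young 0 h array 1 (0.074) or 2 (0.077), old 0 h array 3 (0.107), young PH 1 h array 2 (0.0733) or old PH 1 h array 3 (0.141). Dnajb9 (ERdj4) was higher after PH than after sham at 0.5 h on both its probe sets, by 0.71 and 0.98 (adjusted p = 0.0395 and 0.0336), and was not called against 0 h. On the brighter probe set that call was lost in 8 of 10 fits, and kept without young PH 0.5 h array 2 or old PH 0.5 h array 3. Pdia6 fell by 0.31 at 4 h on 1 probe set (adjusted p = 0.0222), with -0.28 on its brightest (adjusted p = 0.0969). On the called probe set, sham livers at 4 h differed from 0 h by -0.38 (adjusted p = 0.0105), and PH from sham by 0.07 (adjusted p = 0.71). Of 4 probe sets of Dnajc3, which restrains PERK and serves as a cochaperone in the ER, 1 rose at 4 h, by 0.20 (adjusted p = 0.047). That probe set carries a cross-hybridisation suffix and was dim, at 2.75 to 3.34 over all arrays. On it, sham livers at 4 h differed from 0 h by 0.19 (adjusted p = 0.0792), and PH from sham by 0.01 (adjusted p = 0.941).

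The factors and target of the unfolded protein response were called at 4 h in both directions. Herpud1, an ER membrane protein that serves in the degradation of misfolded proteins, fell. Its level was 10.41, 9.69 and 9.27 in old and 9.71, 10.14 and 9.21 in young livers 4 h after PH, against 10.60, 9.63 and 10.71 in old and 10.81, 10.98 and 11.19 in young livers at 0 h. A single 0 h array, old array 2, lay among the PH arrays. The difference was -0.92 ± 0.21, a fold of 0.53 (adjusted p = 0.00171), and it held in every fit without 1 array and in every alternative. Sham livers at 4 h differed from 0 h by -0.30 (adjusted p = 0.361), and PH from sham by -0.62 (adjusted p = 0.0578).

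Xbp1, the factor that IRE1 activates by splicing, rose at 4 h. It had 10.11, 10.33 and 10.46 in old and 10.11, 9.55 and 10.004 in young livers 4 h after PH, against 9.19, 9.42 and 9.15 in old and 9.82, 9.90 and 9.26 in young livers at 0 h. In old livers the arrays did not overlap, and in young livers they did. The difference over both ages was 0.64 ± 0.22 (adjusted p = 0.03), lost in 7 of 12 fits (adjusted p = 0.0501 to 0.0881), those without young 0 h array 3, old 0 h array 1 or 3, young PH 4 h array 1 or 3, or old PH 4 h array 2 or 3. Sham livers at 4 h were higher by 0.66 (adjusted p = 0.0374).

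Atf4, the factor translated when PERK slows protein synthesis, rose by 0.28 ± 0.09 at 4 h (adjusted p = 0.0161). Its PH arrays ranged over 9.50 to 9.69, all above the 0 h arrays of 9.18 to 9.46, and the call held in every fit without 1 array. Sham livers at 4 h were higher by 0.24 (adjusted p = 0.0491). Atf6, the membrane-bound factor cleaved under ER stress, rose by 0.42 at 2 h (adjusted p = 0.0307), lost without young 0 h array 1 (0.0884), old 0 h array 3 (0.122), young PH 2 h array 1 (0.113) or old PH 2 h array 2 (0.0663) or 3 (0.11). Ddit3 (CHOP), a target of ATF4 linked to cell death, was not called at any time and differed by -0.17 at 4 h (adjusted p = 0.184).

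At 4 h, PH and sham livers can be set side by side. Of the 23 members called against 0 h after PH, 10 were also called in sham livers in the same direction and 3 were called between PH and sham. At 4 h, 31.3% of all probe sets were called between sham and 0 h and 23.5% between PH and sham. The matching shares among all probe sets called after PH were not computed, so these counts are not read as particular to the members. PH and sham were compared with the same 0 h arrays, so their values are not independent. The 3 members called between PH and sham were the suffixed probe set of Dnajc2 (0.54, adjusted p = 8.16e-05), Dnajc5 (0.23, adjusted p = 0.0471, lost in 8 of 10 fits and kept without young PH 4 h array 3 or old PH 4 h array 1) and the suffixed probe set of Hspd1 (-0.66, adjusted p = 3.81e-07). The other probe set of Dnajc2 differed by 0.24 and was not called (adjusted p = 0.0833). For Hspb8, Xbp1, Atf4, Hspa2, Dnajb1, Dnajb2 and Hspa1b the difference between PH and sham at 4 h lay between -0.05 and 0.33 and did not pass. For Hspb1 and the called probe set of Pdia6 it was -0.08 and 0.07, and did not pass (adjusted p = 0.557 and 0.71).

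Across arrays of the same group, some chaperone genes deviated from their group means together. Genes outside the members were not set against Hspa1b or Hspa5, so the counts below are not read as particular to the members. Hspa1b and Hspa5 were taken as the points of comparison after their values had been seen, and each was set against the other 66 genes over the 46 arrays, 132 relations in all, with permutation of arrays within groups and Benjamini-Hochberg adjustment over the 132. With Hspa1b, 4 genes passed by both Pearson's r and Spearman's rho: Dnajb1, Hspa1a, Hsph1 and Dnaja1. For Dnajb1, r was 0.72 and rho 0.73 (two-sided permutation p = 2e-05 for both, adjusted p = 0.00132 and 0.00198), r was 0.65 without the 2 arrays farthest from the median, 0.61 over the 16 sham arrays and 0.78 over the other 30. The 2 arrays of a sham group deviate by equal and opposite amounts. Each r over sham arrays, here and for Hspa5, thus rests on fewer independent values than arrays. For Hspa1a, r was 0.71 and rho 0.68 (adjusted permutation p = 0.00176 and 0.00264), and part of that may be shared signal.

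With Hspa5, 9 genes passed in the same direction and 1, Dnajb3, in the opposite one (r = -0.38, rho = -0.45, adjusted permutation p = 0.0295 and 0.0492). Creld2 had r of 0.79 and rho of 0.76 (adjusted permutation p = 0.00176 and 0.00198), 0.79 without the 2 farthest arrays, 0.95 over sham arrays and 0.68 over the others. Dnajb11 (ERdj3), the J protein that feeds BiP, had r of 0.77 and rho of 0.78 (adjusted permutation p = 0.00207 and 0.00198), and Hsp90b1 r of 0.72 and rho of 0.73 (adjusted permutation p = 0.00132 and 0.00198). The others were Hsp90aa1, Xbp1, Hspa8, Hsph1, Hspd1 and Hspe1, with r of 0.52 to 0.74. Hspa1b and Hspa5 had r of 0.23 with each other (adjusted permutation p = 0.499). Herpud1 had r of 0.07 with Hspa5, 0.78 over sham arrays and -0.28 over the others. All genes of an array share its labelling and scan, and the part of these in the correlations was not tested.

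**Figure D4:**
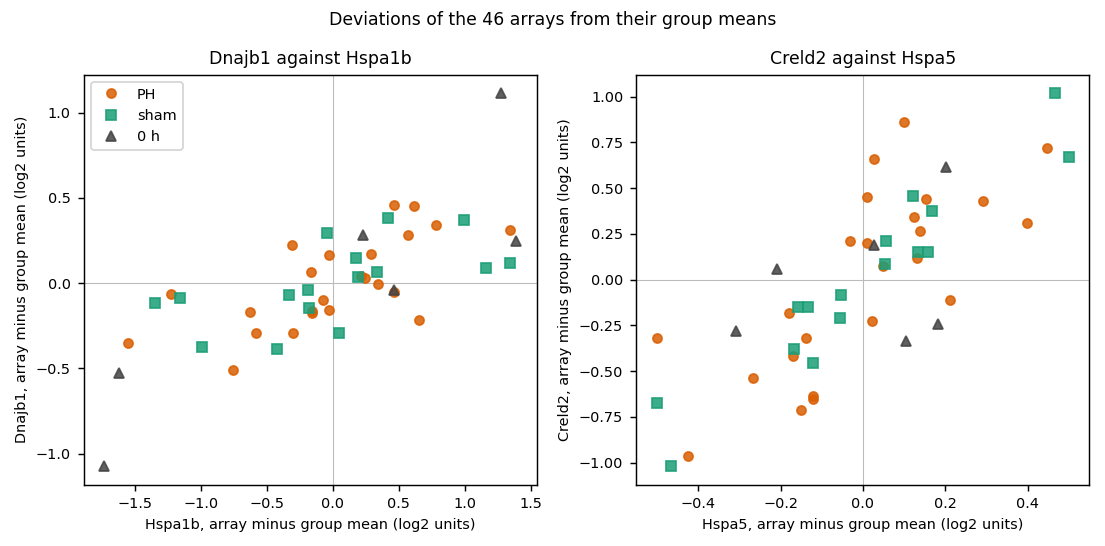
Deviation of each array from its group mean (log2), for Dnajb1 against Hspa1b and Creld2 against Hspa5, with PH, sham and 0 h arrays marked. Both pairs rise together, with r of 0.72 and 0.79.

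**Figure D5:**
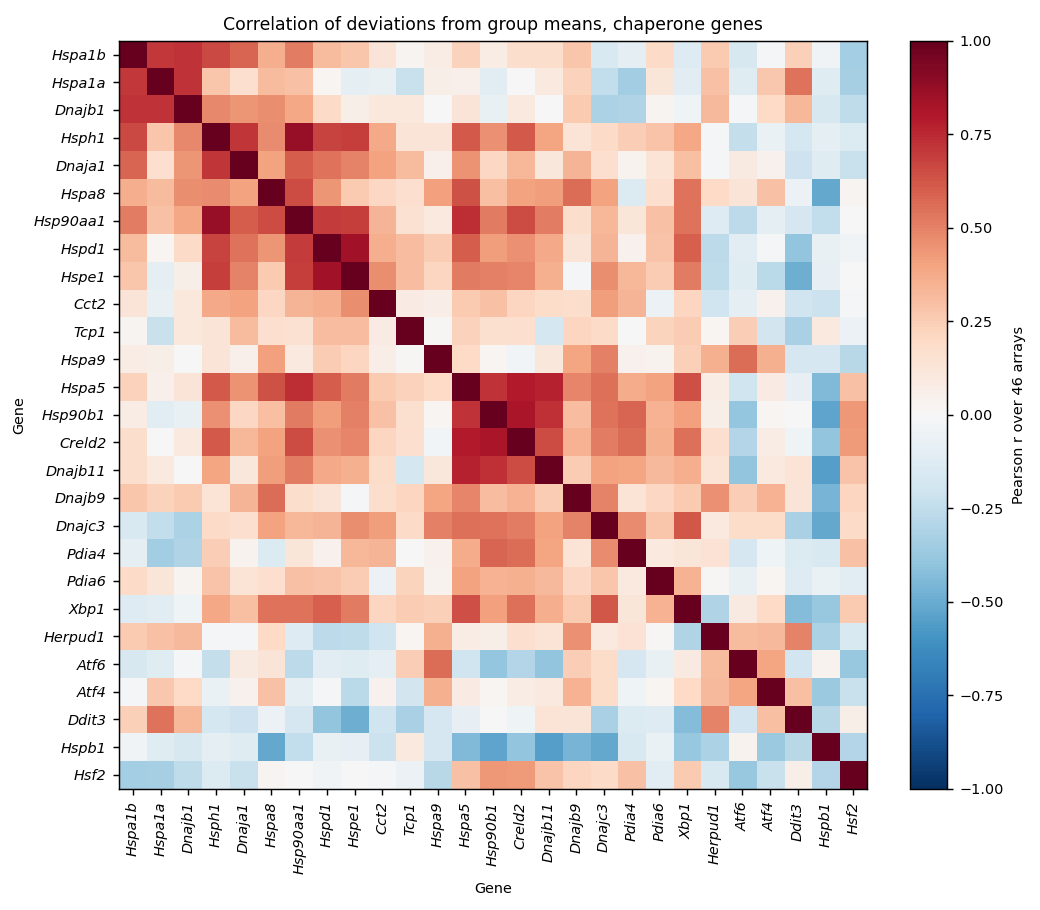
Pearson correlation of within-group deviations over 46 arrays between 27 genes, in a fixed order, with the colour scale from -1 to 1. Hspa1b stands with Dnajb1, Hspa1a and Hsph1, and Hspa5 with Creld2, Dnajb11, Hsp90aa1 and Hsp90b1. The sets are not separate: Hsph1 has r of 0.66 with Hspa1b and 0.62 with Hspa5.

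Age had little detectable bearing on these genes. At 0 h, 0 members differed between old and young livers in limma, where 0.145% of all probe sets did, and 7 had an unadjusted p under 0.05. The age difference in the PH change over the 4 times passed for 0 members, with 0.0% of all probe sets passing and 7 members at an unadjusted p under 0.05. Its smallest adjusted p among members was 0.429, for Pdia4. At single times the smallest p-values gave a PH change in old minus that in young livers of 0.78 for Pdia4 at 0.5 h (adjusted p = 0.41), 0.84 for Hspb8 at 1 h (adjusted p = 0.923), -0.44 for Atf4 at 2 h (adjusted p = 0.87) and 0.52 for Hspb1 at 4 h (adjusted p = 0.949).

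Over all 9 conditions, 3 members differed by age, against 8.93% of all probe sets. Pdia5 was 0.28 ± 0.06 higher in old livers, with means of 7.58 in old and 7.30 in young livers (adjusted p = 0.00266), in every fit without 1 array. Dnajb2 was 0.19 higher in old livers (adjusted p = 0.0272), lost without young sham 0.5 h array 2 (0.0511) or old sham 2 h array 1 (0.0508). Dnajb3 differed by -0.13 (adjusted p = 0.0402), lost in 23 of 46 fits (adjusted p = 0.0501 to 0.101). The count was 6 without old PH 0.5 h array 2.

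Other genes of the same pathways, outside the members, were called as well. Of all probe sets, 1.96%, 5.74% and 11.5% were higher than at 0 h at 1, 2 and 4 h after PH, and 1.75%, 7.08% and 12.01% lower. Of 21 measured genes of the unfolded protein response and its ATF4 targets, 3 rose at 1 h, 6 at 2 h and 4 at 4 h, and 1 fell at 4 h. Atf3, a stress-induced repressor that many signals besides ER stress induce, rose by 3.36, 3.50 and 2.28 at 1, 2 and 4 h, and Cebpb, a factor of the acute-phase response, by 1.12, 1.47 and 1.86. Eif2ak3, which codes for PERK, rose by 0.48 at 2 h. Of 23 measured cofactors of HSP70 and HSP90, 0, 5 and 4 rose and 1, 2 and 5 fell at these times. Hmox1, the stress-induced heme oxygenase, rose by 1.42 and 1.65 at 2 and 4 h, Fkbp5, an HSP90 cochaperone induced by glucocorticoids, by 1.10 and 1.63, and Bag3, the partner of Hspb8, by 0.52 at 4 h. Fkbp4 fell by 0.53 at 4 h.

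Of 32 measured genes of ER folding and of the degradation of misfolded ER proteins, 1, 4 and 1 rose at 1, 2 and 4 h and 0, 2 and 9 fell. At 4 h Sel1l and Derl2, parts of the machinery that returns misfolded proteins to the cytosol, each fell by 0.42, and Erp44 fell by 0.33, beside the fall of Herpud1. At 2 h Sec61b and Sec61a1, parts of the channel that takes new chains into the ER, rose by 0.41 and 0.35. None of the genes of these 3 lists was called at 0.5 h in limma.

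Markers of other cells moved in the same comparisons. Over the 4 times, 25.8% of all probe sets were higher and 19.3% lower in sham livers than at 0 h, and the marker counts in sham livers stand beside these shares. In bulk tissue, fewer cells of a type and less RNA per cell cannot be told apart. Of 10 neutrophil markers, 3 rose after PH at each of 1, 2 and 4 h, Lcn2 by 5.79 at 4 h, and 6 were higher in sham livers. Their summed level ranged over 67.3 to 71.3 in PH livers at 4 h and 69.9 to 72.7 in sham livers at 4 h, against 58.7 to 62.0 at 0 h, and the median sum, like the level of Hspb8, was highest at 4 h in both PH and sham livers. The sum includes Lcn2, whose 5.79 is a large part of its rise after PH: the median sum was 59.7 at 0 h and 69.3 at 4 h. Which cells the Lcn2 RNA came from was not tested, so the sum is not read as a measure of neutrophil number. Old PH 1 h array 3 and old PH 0.5 h array 1 had the highest sums, 87.2 and 80.8. No fit left out both of them, and without old PH 1 h array 3 alone the count at 1 h was 0. With 2 other arrays left out together, young 0 h array 3 and old PH 0.5 h array 3, the counts against 0 h were 0, 5, 18 and 21. Of 6 skeletal muscle markers, 3 rose and 1 fell at 4 h after PH, with sums of 32.4 to 33.5 there, and 3 were higher in sham livers, with sums of 32.8 to 34.3, against 31.9 to 33.3 at 0 h. Of 7 endothelial markers, 1 was higher and 4 lower in sham livers, with sums of 42.3 to 44.4, against 44.3 to 45.2 at 0 h. Of 7 B and T cell markers, 4 were higher in sham livers, with sums of 38.2 to 40.4, against 37.4 to 38.7 at 0 h. The 9 measured hepatocyte markers summed to 104 to 106 at 4 h after PH and at 0 h alike. The part of these markers in the results was not tested.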

How the data were processed

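Each of the 46 arrays was hybridised with biotin-labelled cRNA made from total liver RNA, per the labels' protocols. Per the submitters' processing notes, the authors used RMA, and the values they deposited are on a log2 scale. Neither its version nor the set of arrays it was run on together is named in those sources. Probe sets took their gene from the platform annotation: of 12488 probe sets, 66 were controls and left out, 10833 had 1 symbol, 396 several and 1193 none.

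A model with 18 group means (2 ages, 9 conditions) was fitted to all 12422 probe sets and 46 arrays with limma 3.58.1 in R 4.3.3, and differences between group means were tested with Benjamini-Hochberg adjustment over all probe sets at 0.05. Members were chosen by symbol, and the members, marker lists and pathway lists were chosen with earlier results of these data known. Named genes are the 10 highest and 10 lowest passing members of a comparison and a fixed set of main chaperones and stress factors. A gene with several probe sets is given by its brightest. Promoter windows and correlations were computed in Python 3.11.15, correlations with 100000 permutations within groups. The fit was tested on simulated data. Alternatives were array centring, leaving out dim probe sets or those with suffixes, 1 probe set per gene, a replicate block, array weights, the spike-in covariate, leaving out 2 arrays together (young 0 h array 3 and old PH 0.5 h array 3), trend and robust settings, the compared groups alone, and leaving out each array in turn. Same-numbered arrays of different groups did not deviate together (mean r = 0.006, against -0.0029 for other numbers), and in 13 of 153 group pairs every same-numbered pair correlated over 0.1, so numbers were not taken as pairs. No 2 arrays were alike beyond noise: the smallest median absolute difference was 0.0858.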

Additional observations from a re-analysis of the deposited data

How the results depend on the processing

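Of the 13 counts of called members, most stayed within 1.5 times of the value reported under the 10 other settings, and no named gene reversed direction. The 7 calls of PH against 0 h at 1 h became 0 with the spike-in covariate and 2 with the compared groups alone, and the 19 at 2 h became 3 with the spike-in covariate. The 18 calls of PH against sham at 4 h became 11 without suffixed probe sets and 28 with array weights. Array weights gave 2 calls for the change of PH minus sham from 0.5 h to 4 h and 3 for old against young at 0 h, each 0 as reported, and leaving out 2 arrays gave 5 for old against young over all conditions. Of 147 calls of named genes, 44 were lost with the spike-in covariate, 29 with the compared groups alone, 15 with array weights, 11 without 2 arrays, 7 each with the replicate block and with trend and robust settings, and 6 with array centring. The cause was not tested. With the replicate block, the counts of PH against 0 h were 0, 8, 17 and 24, of PH against sham 25, 28, 28 and 19, and of sham against 0 h 36.

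Without 1 array, the counts of PH against 0 h ranged over 0 to 0, 0 to 8, 9 to 17 and 17 to 22 at the 4 times, of PH against sham over 16 to 26, 23 to 32, 17 to 38 and 10 to 21, of sham against 0 h over 30 to 39, of the change of PH minus sham over 0 to 1, of old against young over all conditions over 1 to 6, and 0 to 0 for old against young at 0 h and for the age difference in the PH change. Of the 17 genes called on their brightest probe set at 4 h after PH, 8 held in every such fit, against 4 of 15 at 2 h and 0 of 7 at 1 h. Signal over background was not used here, and how far it limits dim genes such as Hspb1 and Hspa2 was not tested.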
